A study of Mus musculus with 16 samples.

Results

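The inner root sheath is the sleeve of hardened keratinocytes that encloses and moulds a growing hair inside its follicle. The 6 genes described here are 3 keratins of that sheath, Krt25, Krt27 and Krt71, the sheath protein trichohyalin (Tchh), the peptidylarginine deiminase Padi3 and the transcription factor Gata3. They were found as the probe sets whose single annotated gene symbol is 1 of these 6, among 12393 genes with such a probe set. All 6 genes were present, each with 1 probe set: 1418173_at for Krt25, 1449378_at for Krt27, 1448457_at for Krt71, 1434425_at for Tchh, 1419767_at for Padi3 and 1448886_at for Gata3.

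Total skin RNA was measured on 16 Affymetrix Mouse Expression Set 430 A arrays. The transgenic mice were K14deltaNB-cateninER animals of line D2, which carry β-catenin lacking its N terminus, a stabilised form, fused to the ligand-binding domain of the oestrogen receptor. The keratin 14 promoter drives the fusion in basal keratinocytes, and 4-hydroxytamoxifen (4OHT) activates it. The controls were wild type C57BL/6 mice that received the same drug. Skin was taken after 0, 1 or 7 days of 4OHT, with 2, 3 and 3 transgenic arrays and 3, 3 and 2 wild-type arrays at these days. D2 is 1 transgenic line, ages are not given in the labels, and no array held vehicle-treated skin, and within a genotype the effects of drug, handling and elapsed time cannot be told apart. Whether each array is its own animal is not stated in every label, and the p-values therefore reflect sample-to-sample spread that may be partly technical.

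As background, inner root sheath keratinocytes assemble filaments from pairs of keratins, 1 of type I and 1 of type II. Krt25 and Krt27 are of type I, and Krt71 is of type II. Trichohyalin fills the cells as granules and is then deiminated by peptidylarginine deiminases, among them Padi3, and cross-linked by transglutaminases, which stiffens the sheath. Gata3 is a transcription factor of the inner root sheath lineage that is also expressed in other skin epithelium and in T lymphocytes. The sheath is made during the growth phase of the hair cycle, anagen, and is lacking from resting follicles, and Wnt and β-catenin signalling is known to start anagen.

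In the RefSeq gene order the keratin members lie inside keratin clusters. Krt25, Krt26, Krt27 and Krt28 follow each other on chromosome 11, and Krt71 is followed by Krt72 and Krt73 on chromosome 15. Tchh lies between Rptn and Tchhl1 on chromosome 3, and Padi3 between Padi4 and Padi1 on chromosome 4. The sequences just upstream of the start of Krt25, Krt27, Krt71 and Tchh are shown because short motifs searched for below were found in them. Only the GATA motif was in all 4. Padi3, which rose with these genes, and Gata3 held none of the motifs and are not shown. Each sequence shown is the 250 bases before the RefSeq start on GRCm38.p6, written on the gene's own strand, with matched motifs in capitals. The windows are chr11:99322952-99323201 on the minus strand for Krt25, chr11:99351119-99351368 on the minus strand for Krt27, chr15:101743098-101743347 on the minus strand for Krt71 and chr3:93442080-93442329 on the plus strand for Tchh.
Krt25: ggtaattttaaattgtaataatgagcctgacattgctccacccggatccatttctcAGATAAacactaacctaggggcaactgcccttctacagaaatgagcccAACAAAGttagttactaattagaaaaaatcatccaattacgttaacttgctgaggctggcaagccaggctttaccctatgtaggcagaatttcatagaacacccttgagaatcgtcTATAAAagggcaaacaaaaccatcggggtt
Krt27: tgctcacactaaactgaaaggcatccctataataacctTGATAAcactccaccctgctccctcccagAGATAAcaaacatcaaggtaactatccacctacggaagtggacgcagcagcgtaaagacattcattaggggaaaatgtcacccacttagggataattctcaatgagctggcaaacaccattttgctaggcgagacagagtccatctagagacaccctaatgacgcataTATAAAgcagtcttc
Krt71: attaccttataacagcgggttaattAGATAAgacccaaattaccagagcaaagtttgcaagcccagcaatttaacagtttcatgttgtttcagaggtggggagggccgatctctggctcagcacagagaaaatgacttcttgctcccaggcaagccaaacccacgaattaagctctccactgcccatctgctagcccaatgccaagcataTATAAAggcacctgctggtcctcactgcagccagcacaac
Tchh: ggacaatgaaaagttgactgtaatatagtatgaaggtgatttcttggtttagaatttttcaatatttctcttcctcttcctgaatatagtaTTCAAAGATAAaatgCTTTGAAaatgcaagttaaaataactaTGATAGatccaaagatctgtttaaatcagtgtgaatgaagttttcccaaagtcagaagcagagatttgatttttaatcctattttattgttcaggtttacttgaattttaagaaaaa

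All 6 members had an upstream window, and 3 motifs were searched on both strands. TATAAA, the core of a TATA box, was found in all 3 keratin members, with its first base 30 bases before the start in Krt25, 15 in Krt27 and 40 in Krt71, and in 12.4% of all 32817 windows. A GATA motif (AGATAA or AGATAG or TGATAA or TGATAG) was found in 4 members and in 26.6% of all windows. It began 194 bases before the start in Krt25, 212 and 183 in Krt27, 225 in Krt71, and 154 and 117 in Tchh. A LEF/TCF motif (AACAAAG or ATCAAAG or TACAAAG or TTCAAAG) was found in 2 members and in 14.8% of all windows. It began 146 bases before the start in Krt25. In Tchh TTCAAAG began at 159, running into the AGATAA at 154, and lay again on the opposite strand at 144. Padi3 and Gata3 held none of these letters in this window. A match describes the letters and is not evidence of binding.

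Array values were scaled to a common 2% trimmed mean, which had ranged from 359 to 548, and arrays of 1 group correlated at r = 0.984 to 0.989 across probe sets, which are not independent replicates. Tests used limma on log2(scaled intensity + 32) over 9058 genes, with p-values adjusted over all of them and a threshold of 0.05. A gene entered the test when its probe set lay above the 40th percentile of its array, a scaled intensity of 101 to 132, on at least 2 arrays. All 6 members entered. Krt25, Krt27, Tchh and Padi3 entered only through the transgenic day 7 arrays, so these 4 had to differ there once they were tested. Levels of different genes were read by different probes and are not compared. Whole skin holds many cell types, and in bulk RNA fewer cells of a type and less RNA per cell cannot be told apart.

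The 5 structural and enzyme genes of the sheath were dim in every untreated, wild-type and day 1 skin sample and bright in transgenic skin after 7 days. The size of their rises depends on the value added before the logarithm, since their day 0 intensities were so low, and the rises are therefore not ranked. Gata3 did not rise with them, and was lower at day 7 than at day 0 in both genotypes.

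Krt25 pairs with type II keratins in all layers of the inner root sheath. Its scaled intensity on the 3 transgenic day 7 arrays was 8449, 9768 and 7747, a mean of 8655 ± 1026 (SD, n = 3). On the other 13 arrays it ran from 1.30 to 19.9 with a median of 4.51, and 0 of the 13 lay above the array's 40th percentile. The day 7 arrays thus stood apart from all others without overlap, and the remaining arrays lay too low to be ordered. The transgenic change from day 0 to day 7 was 7.89 ± 0.20 on the log2 scale (SE of the limma fit, 95% interval 7.45 to 8.32, adjusted p = 2.6e-13). Because 32 was added before the logarithm, changes from such low intensities are understated. With 8 added in place of 32 the change of Krt25 was 9.45.

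Krt27, the other type I keratin of the sheath here, was at 5589, 7028 and 3927 on the 3 transgenic day 7 arrays, a mean scaled intensity of 5515 ± 1552 (SD, n = 3). The other 13 arrays ran from 5.66 to 51.0 with a median of 22.9, all below the 40th percentile of their array. Replicate 3 was the dimmest of the day 7 arrays, and even it was far above every other array. The change from day 0 to day 7 was 6.44 ± 0.33 on the log2 scale (95% interval 5.74 to 7.15, limma adjusted p = 1.9e-09).

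Krt71, the type II partner whose mutation curls the coat of several mammals, was at 9208, 11330 and 8891 in transgenic day 7 skin, a mean scaled intensity of 9811 ± 1328 (SD, n = 3). It had a measurable signal elsewhere, from 75.2 to 157 with a median of 114, and 7 of the 13 other arrays lay above the 40th percentile of their array. The transgenic day 7 arrays were again all higher than every other array. The change from day 0 to day 7 was 6.02 ± 0.16 on the log2 scale (95% interval 5.68 to 6.35, limma adjusted p = 2.6e-13).

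Tchh, the granule protein, was at 4234, 5621 and 3835 on the transgenic day 7 arrays, a mean scaled intensity of 4563 ± 938 (SD, n = 3), against 22.5 to 94.4 on the other 13. Padi3, the deiminase that acts on trichohyalin, was at 2767, 3068 and 1699 there, a mean of 2511 ± 719 (SD, n = 3), against 44.7 to 85.5 on the other 13. Neither gene lay above the 40th percentile on any of those 13 arrays, where the medians were 63.2 for Tchh and 69.8 for Padi3. Both genes entered the test only through the same 3 arrays, so their being bright there together is not separate evidence of a link. Tchh changed by 5.29 ± 0.26 on the log2 scale from day 0 to day 7 (95% interval 4.74 to 5.83, limma adjusted p = 1.1e-09). Padi3 changed by 4.51 ± 0.21 (95% interval 4.07 to 4.95, adjusted p = 6.06e-10).

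**Figure D1:**
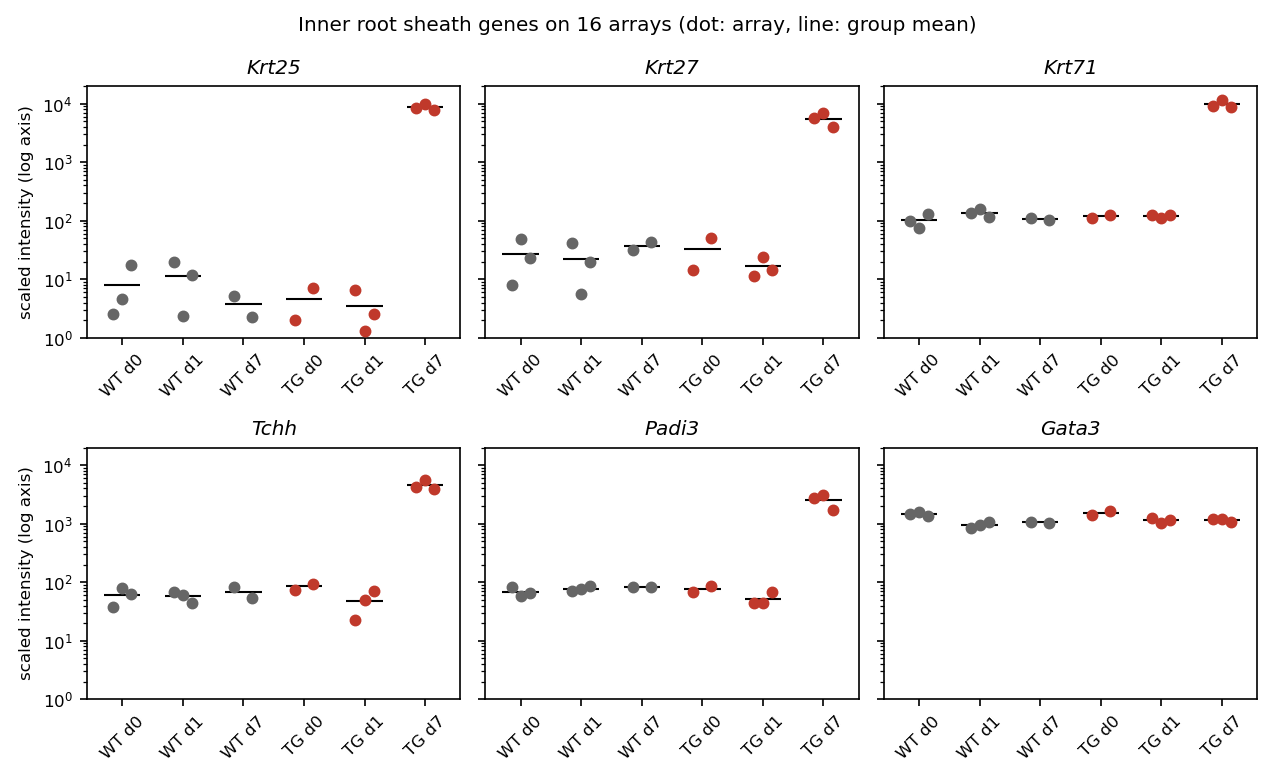
Scaled intensity of the 6 genes on each of the 16 arrays (log axis), by group, with WT for wild-type, TG for transgenic, d0, d1 and d7 for days of 4OHT, a dot per array and a line at the group mean. Krt25, Krt27, Krt71, Tchh and Padi3 are high on the 3 transgenic day 7 arrays, where Krt25 lies at 7747 to 9768, and low on the other 13, while Gata3 lies between 827 and 1630 on the other 13 and between 1071 and 1218 on these 3.

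Of the 6 members, 5 were past the threshold upwards from day 0 to day 7 in transgenic skin, where 18.6% of all genes tested were higher and 20.1% lower. For these 5 every day 7 array lay above both day 0 arrays, as for 29.9% of all genes. The same 5 were higher in transgenic day 7 than in transgenic day 1 skin, where 21.5% of all genes were higher and 22.7% lower. On the log2 scale those changes from day 1 were 7.93 ± 0.18 for Krt25, 6.80 ± 0.30 for Krt27, 6.02 ± 0.14 for Krt71, 5.88 ± 0.23 for Tchh and 4.88 ± 0.19 for Padi3. The largest limma adjusted p among them was 2.17e-10. The day 7 arrays are shared by both comparisons, so the second is not a separate observation of day 7.

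On the first day of treatment none of these 5 genes passed the test. Of the 6 members 0 were higher and 1, Gata3, was lower in transgenic skin at day 1 than at day 0, where 6.6% of all genes tested were higher and 4.15% lower. The change of Krt25 was -0.04 on the log2 scale (95% interval -0.48 to 0.39), that of Krt27 was -0.36 (-1.07 to 0.34) and that of Krt71 was 0.00 (-0.34 to 0.33). Tchh was at 74.6 and 94.4 at day 0 and at 22.5, 49.6 and 70.7 at day 1, and Padi3 was at 68.3 and 84.7 at day 0 and at 44.7, 44.9 and 67.4 at day 1. All day 1 arrays were below both day 0 arrays for these 2 genes, as they were for 22.5% of all genes tested, and all of these intensities lay under the 40th percentile of their array. The change of Tchh was -0.59 ± 0.26 (95% interval -1.14 to -0.05, limma adjusted p = 0.149) and that of Padi3 was -0.37 ± 0.21 (-0.81 to 0.07, adjusted p = 0.269), so neither passed the test.

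In wild-type skin under the same drug none of these 5 genes passed the test at either day. From day 0 to day 7 in wild-type skin 0 members were higher, where 5.48% of all genes tested were higher and 5.96% lower. The change of Krt25 was -0.15 on the log2 scale (95% interval -0.59 to 0.28), that of Krt27 was 0.30 (-0.41 to 1.00), that of Krt71 was 0.07 (-0.27 to 0.41), that of Tchh was 0.12 (-0.42 to 0.66) and that of Padi3 was 0.18 (-0.26 to 0.62). The upper end of each interval lies far under the transgenic change of the same gene. Krt25, Krt27, Tchh and Padi3 lay under the 40th percentile on every wild-type array. The added 32 shrinks changes at such intensities, so a small wild-type change of these genes could be missed. From day 0 to day 1 in wild-type skin 0 members were higher as well, where 10.1% of all genes were higher and 12.3% lower. Krt71 came nearest, with arrays at 99.6, 75.2 and 129 at day 0 and at 136, 157 and 114 at day 1, which overlap, and a change of 0.34 ± 0.14 (limma adjusted p = 0.0923). Without wild-type day 0 replicate 3 this change was 0.49 and passed (limma adjusted p = 0.0237).

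**Figure D2:**
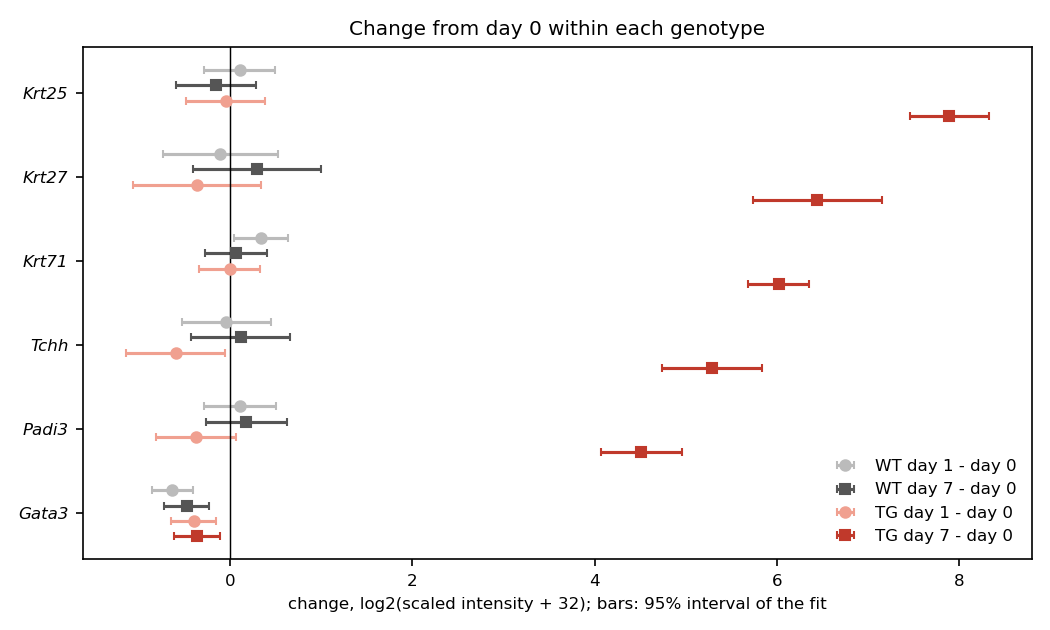
Change of each of the 6 genes from day 0 to day 1 and to day 7 in wild-type (WT, grey) and transgenic (TG, red) skin, on the log2(scaled intensity + 32) scale, with 95% intervals of the limma fit as bars. At day 7 in transgenic skin 5 genes lie between 4.51 and 7.89, and their other changes lie between -0.59 and 0.34, while all 4 changes of Gata3 lie between -0.63 and -0.36.

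The genotypes were compared directly at each day. Before treatment 0 of the 6 members differed between transgenic and wild-type skin, where 0.011% of all genes tested were higher and 0% lower (413 genes had an unadjusted p under 0.05). All 6 adjusted p were 0.994 in limma, and the widest interval was that of Krt27, at 0.14 with bounds of -0.56 and 0.85 on the log2 scale. After 1 day 0 members differed again, where 0.707% of all genes were higher and 0.596% lower (1818 genes had an unadjusted p under 0.05). Padi3 was lower on all 3 transgenic than on all 3 wild-type arrays at day 1, at 44.7 to 67.4 against 69.8 to 85.5, as 11.9% of all genes were, and its difference of -0.38 ± 0.19 did not pass (limma adjusted p = 0.266).

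After 7 days 5 members were higher in transgenic than in wild-type skin, where 19.5% of all genes tested were higher and 21% lower. The differences on the log2 scale were 7.92 ± 0.20 for Krt25, 6.29 ± 0.33 for Krt27, 6.15 ± 0.16 for Krt71, 5.52 ± 0.26 for Tchh and 4.44 ± 0.21 for Padi3, with limma adjusted p of 3.06e-09 or less. The test of whether the change to day 7 differed between genotypes was passed by the same 5 genes, where 12.1% of all genes passed upwards and 11.7% downwards. That difference of changes was 8.04 ± 0.29 for Krt25 (limma adjusted p = 6.35e-11), 6.15 ± 0.47 for Krt27 (5.82e-07), 5.95 ± 0.22 for Krt71 (6.35e-11), 5.17 ± 0.36 for Tchh (3.02e-07) and 4.33 ± 0.29 for Padi3 (2.25e-07). These comparisons share the 3 transgenic day 7 arrays with those above.

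Gata3 was the exception among the 6. It was well above the 40th percentile on all 16 arrays. Its scaled intensity before treatment was 1394 and 1627 on the transgenic arrays and 1482, 1556 and 1363 on the wild-type arrays. After 1 day it was 1260, 1007 and 1159 on the transgenic arrays and 827, 939 and 1051 on the wild-type arrays. Within each genotype every day 1 array was below every day 0 array, as for 22.5% of all genes tested in transgenic and 22.7% in wild-type skin. After 7 days it was 1213, 1218 and 1071 on the transgenic arrays and 1048 and 1046 on the wild-type arrays, again below every day 0 array, as for 29.7% of all genes in transgenic and 25% in wild-type skin.

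From the highest down, the group means of Gata3 were 1510 ± 165 (SD, n = 2) in transgenic day 0, 1467 ± 97.1 (SD, n = 3) in wild-type day 0, 1167 ± 83.1 (SD, n = 3) in transgenic day 7, 1142 ± 127 (SD, n = 3) in transgenic day 1, 1047 ± 1.73 (SD, n = 2) in wild-type day 7 and 939 ± 112 (SD, n = 3) in wild-type day 1. The 2 day 0 groups overlapped, and so did transgenic day 7 with transgenic day 1, transgenic day 1 with wild-type day 7 and wild-type day 7 with wild-type day 1. The step from wild-type day 0 to transgenic day 7 was the one between neighbours in this order that was wider than the spread on both sides. Within wild-type skin the change to day 1 was -0.63 ± 0.11 on the log2 scale (95% interval -0.85 to -0.41, limma adjusted p = 0.00103) and that to day 7 was -0.47 ± 0.12 (-0.72 to -0.22, adjusted p = 0.0164). Within transgenic skin the change to day 1 was -0.40 ± 0.12 (-0.65 to -0.15, limma adjusted p = 0.0426) and that to day 7 was -0.36 ± 0.12 (-0.61 to -0.11, adjusted p = 0.0236).

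Gata3 was therefore lower after 4OHT than before it in both genotypes. The change from day 1 to day 7 in transgenic skin was 0.03 ± 0.11 (95% interval -0.19 to 0.26, limma adjusted p = 0.816). The genotypes' changes to day 7 differed by 0.11 ± 0.17 (95% interval -0.24 to 0.46, limma adjusted p = 0.67), which leaves room for a modest difference either way. At day 1 Gata3 was 0.27 ± 0.11 higher in transgenic than in wild-type skin and did not pass (95% interval 0.05 to 0.50, limma adjusted p = 0.165). At day 7 all 3 transgenic arrays lay above both wild-type arrays, as for 31.6% of all genes tested, with a difference of 0.15 ± 0.12 that did not pass (limma adjusted p = 0.331).

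These 4 calls of Gata3 are of different firmness. With the deposited values left unscaled all 4 were lost, at changes of -0.51 to -0.56 and limma adjusted p of 0.116 to 0.335. The wild-type day 1 call was kept without any single array (limma adjusted p of 0.000783 to 0.00749). The wild-type day 7 call was lost without replicate 2 of wild-type day 0 (-0.43, limma adjusted p = 0.0613) and without either array of wild-type day 7 (-0.47 and 0.108 without replicate 1, -0.47 and 0.0907 without replicate 2). The transgenic day 7 call was lost without replicate 2 of transgenic day 0 (-0.25, limma adjusted p = 0.224) or replicate 3 of transgenic day 7 (-0.30, 0.0758). The transgenic day 1 call was lost without either transgenic day 0 array (-0.50 and limma adjusted p = 0.0526 without replicate 1, -0.29 and 0.338 without replicate 2) and without transgenic day 1 replicate 2 (-0.31, 0.132) or replicate 3 (-0.41, 0.0598). It was also lost, at an unmoved change of -0.40, without replicate 1 or 2 of transgenic day 7, replicate 2 of wild-type day 1, or replicate 1 or 2 of wild-type day 7 (limma adjusted p of 0.052 to 0.0548).

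T lymphocytes also express Gata3, so their markers were read on the same arrays. Of 14 listed markers 12 had a probe set and 6 passed the filter, while Cd2, Cd4, Cd5, Cd8a, Cd28 and Trat1 did not. The summed scaled intensity of the 12 was 2199 to 2241 at day 0, 1837 to 2029 at day 1 and 1824 to 2203 at day 7 in transgenic skin, and 1936 to 2131, 1789 to 2250 and 1685 to 2149 in wild-type skin. At day 1, when Gata3 was lower in both genotypes, 0 of the 6 tested markers passed in either genotype, and at day 7 in wild-type skin 0 passed. Of all genes tested 4.15% were lower at transgenic day 1, 12.3% at wild-type day 1 and 5.96% at wild-type day 7. For 6 markers a count of 0 is near those shares. At day 7 in transgenic skin 20.1% of all genes tested were lower than at day 0. The 6 markers had a median change of -0.64 against 0.01 for all genes, and 4 of them were lower. They were Cd3e (-0.88 ± 0.15, limma adjusted p = 0.000274), Cd3g (-0.80 ± 0.14, 0.000364) and Cd247 (-0.77 ± 0.18, 0.0033), which are subunits of the T cell receptor complex, and the interleukin 7 receptor Il7r (-0.52 ± 0.19, 0.0423). Their part in the level of Gata3 was not tested.

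**Figure D3:**
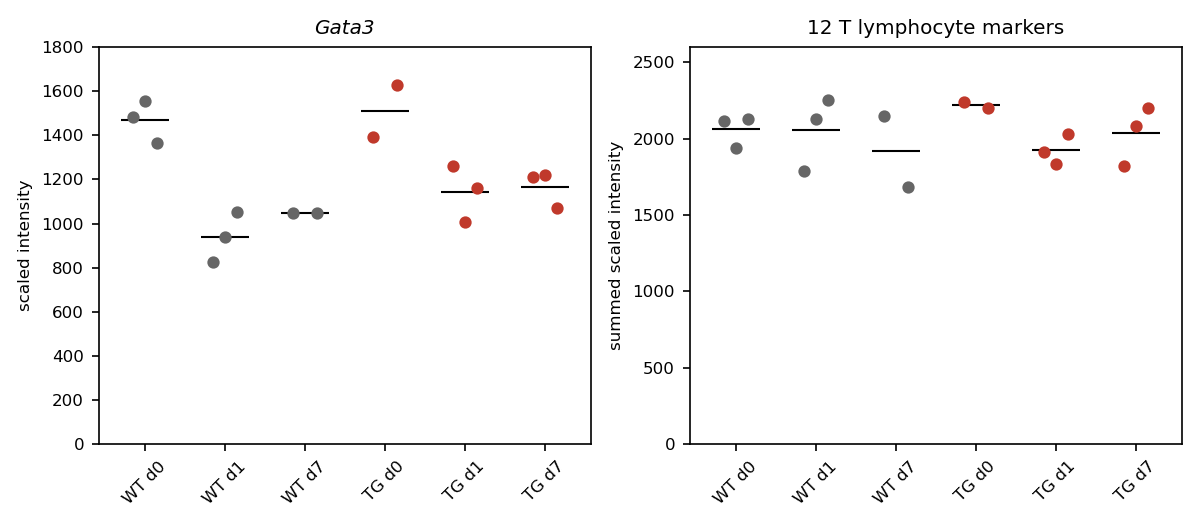
Scaled intensity of Gata3 (left) and the summed scaled intensity of 12 T lymphocyte markers (right) on each of the 16 arrays, by genotype (WT wild-type, TG transgenic) and day of 4OHT, with a dot per array and a line at the group mean. The 5 day 0 arrays, at 1363 or more, lie above the other 11 for Gata3. The marker sums of day 0 and later arrays overlap in wild-type skin. In transgenic skin they are 2199 to 2241 at day 0, 1837 to 2029 at day 1 and 1824 to 2203 at day 7.

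The 3 transgenic day 7 arrays did not carry the sheath genes equally. Replicate 3 was the lowest and replicate 2 the highest for all 5 sheath genes, and replicate 3 was also the lowest for 55.1% of the 336 genes that rose over 2-fold. The ratio of the highest to the lowest of the 3 arrays was 1.26 for Krt25, 1.27 for Krt71, 1.47 for Tchh, 1.79 for Krt27 and 1.81 for Padi3. The median of those 336 genes was 1.25, near the ratios of Krt25 and Krt71 and below those of Tchh, Krt27 and Padi3. Gata3 varied by 1.14.

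Keratins of the hair shaft, the neighbouring product of the same follicle, varied more on these arrays. Of the 12 measured, 11 rose from day 0 to day 7 in transgenic skin, where 18.6% of all genes tested were higher and 20.1% lower. The median change was 3.82 over the list against 0.01 for all genes. At transgenic day 0 the 12 together summed to only 905 to 1217. Any shaft keratin that passed the filter only on the transgenic day 7 arrays had to differ there once tested. The ratio of highest to lowest array ran from 1.36 to 5.66 among the 11, with a median of 3.58, and replicate 3 was the lowest for all 11. Krt35, a keratin of the early shaft, was at 3099, 3633 and 2670, close to the pattern of Krt25 and Krt71. Krt31 and Krt33a, keratins of the shaft cortex, were at 2570, 2985 and 888 and at 2812, 3672 and 983. Replicate 3 thus held 89.5% of the 3-array mean of Krt25, 90.6% of that of Krt71 and 85.2% of that of Krt35, but 41.3% of that of Krt31 and 39.5% of that of Krt33a. The shaft keratins Krt32 and Krt36 were at 77.4% and 64.5%, and the remaining ones that rose at 28.9% to 42.8%. Among the members Tchh was at 84%, Krt27 at 71.2% and Padi3 at 67.7%, so the 2 sets overlap. This is a description of 3 arrays and was not tested.

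**Figure D4:**
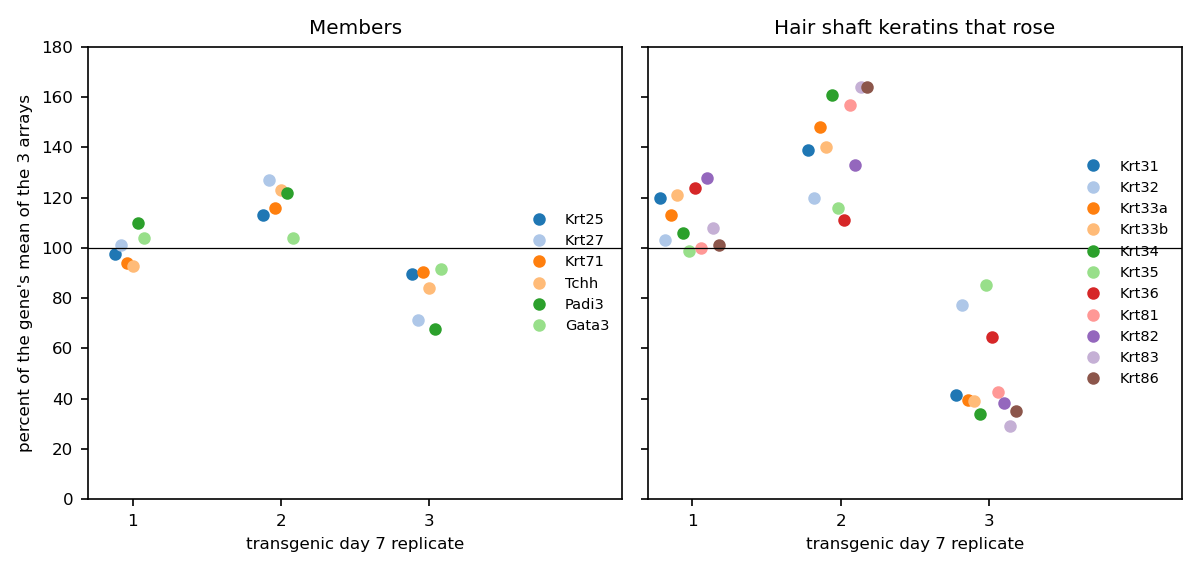
Scaled intensity on each transgenic day 7 array as a percent of the gene's mean over the 3 arrays, for the 6 members (left) and for the 11 hair shaft keratins that rose (right), with a dot per gene and array and a line at 100%. On replicate 3 the members lie between 67.7% and 91.8%, while the shaft keratins spread from 28.9% to 85.2%.

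Other keratins of the inner root sheath and of the companion layer, the cell layer just outside it, were read from a list of 10, of which 6 had a probe set and all 6 were tested. From day 0 to day 7 in transgenic skin 3 rose and 1 fell, where 18.6% of all genes tested were higher and 20.1% lower. The median change was 0.65 on the log2 scale against 0.01 for all genes. Krt72, a type II keratin of the sheath cuticle and neighbour of Krt71, was at 64.4 ± 5.33 (SD, n = 2) at day 0 and 1417 ± 449 (SD, n = 3) at day 7, a change of 3.86 ± 0.24 (limma adjusted p = 1.33e-08). Its day 0 intensity lay under the filter. If only the transgenic day 7 arrays carried Krt72 into the test, it had to differ there. In wild-type skin it was lower at day 7 than at day 0, by a change of -0.81 ± 0.24 (limma adjusted p = 0.0369) between intensities under the 40th percentile. The difference between genotypes was 4.67 ± 0.33 (limma adjusted p = 3.52e-07).

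Krt75 and Krt17, keratins of the companion layer and outer root sheath, also rose. Krt75 went from 746 ± 92.0 (SD, n = 2) to 3287 ± 581 (SD, n = 3), a change of 2.08 ± 0.17 on the log2 scale (limma adjusted p = 1.78e-07), and the difference between genotypes was 2.38 ± 0.24 (adjusted p = 9.44e-06). Krt17 went from 2326 ± 237 (SD, n = 2) to 4359 ± 760 (SD, n = 3), a change of 0.89 ± 0.15 (limma adjusted p = 0.000265), and the difference between genotypes was 1.00 ± 0.21 (adjusted p = 0.00377). Both were lower at day 1 than at day 0 in wild-type skin, by changes of -0.68 ± 0.15 (limma adjusted p = 0.00504) and -0.66 ± 0.14 (adjusted p = 0.00332).

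Krt16, a keratin of the companion layer that is also induced in stressed epidermis, went the other way. It fell by 0.74 on the log2 scale from day 0 to day 7 in transgenic skin (limma adjusted p = 0.017) and rose by 1.20 ± 0.23 in wild-type skin (adjusted p = 0.00373), and the difference between genotypes was -1.94 ± 0.32 (adjusted p = 0.000626). Its relatives Krt6a and Krt6b did not pass at day 7 in transgenic skin, at changes of -0.02 ± 0.22 and 0.41 ± 0.40. Krt6b passed at day 7 in wild-type skin, at 1.93 ± 0.40 (limma adjusted p = 0.00661).

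The deiminases and transglutaminases, the enzyme families that act on trichohyalin, did not move as 1 group. The list was drawn from the families and not from enzymes shown to act on trichohyalin. Of 8 listed deiminases and transglutaminases besides Padi3, 6 were tested. From day 0 to day 7 in transgenic skin 2 rose and 1 fell, where 18.6% of all genes tested were higher and 20.1% lower. The median change was -0.19 on the log2 scale against 0.01 for all genes. Padi1, which lies beside Padi3, went from 23.3 ± 25.7 (SD, n = 2) to 346 ± 129 (SD, n = 3), a change of 2.79 ± 0.33 (limma adjusted p = 7.57e-06), with a difference between genotypes of 2.58 ± 0.46 (adjusted p = 0.00106). Its day 0 intensity lay under the filter as well. If Padi1 entered only through the transgenic day 7 arrays, it had to differ there. Padi4 rose by 1.85 ± 0.33 (limma adjusted p = 0.00038). Unlike Padi3, Padi4 was already higher at day 1, by 1.26 ± 0.33 in transgenic (limma adjusted p = 0.0251) and 1.43 ± 0.30 in wild-type skin (adjusted p = 0.0036), and its changes to day 7 were not past the threshold for a difference between genotypes (1.17 ± 0.47, adjusted p = 0.0825).

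Padi2 did not pass (-0.43 ± 0.17, limma adjusted p = 0.0519). Among the transglutaminases Tgm3, a cross-linker of trichohyalin, was at 184 to 196 on the transgenic day 7 arrays and at 196 and 245 at day 0. Its change was -0.19 ± 0.15 (95% interval -0.50 to 0.12, limma adjusted p = 0.342), an interval that holds no rise near those of Tchh and Padi3. Tgm1, the transglutaminase of the epidermal envelope, did not pass (-0.19 ± 0.17, limma adjusted p = 0.406). The tissue transglutaminase Tgm2 fell by 0.74 (limma adjusted p = 0.0025), after a rise of 0.72 ± 0.17 at day 1 (adjusted p = 0.0136).

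Trichohyalin belongs to the fused S100 proteins, most of which serve the epidermis. Of 6 listed relatives 3 were tested. From day 0 to day 7 in transgenic skin 1 rose and 2 fell, where 18.6% of all genes tested were higher and 20.1% lower. The median change was -0.62 on the log2 scale against 0.01 for all genes. Flg, the precursor of the epidermal matrix protein filaggrin, went from 1121 ± 27.3 (SD, n = 2) to 2054 ± 388 (SD, n = 3), a change of 0.84 ± 0.15 (limma adjusted p = 0.000387), and its difference between genotypes did not pass (0.55 ± 0.21, adjusted p = 0.0734). Hrnr, the related hornerin of the cornified epidermis, fell by 0.62 (limma adjusted p = 0.00063). Rptn, repetin, the neighbour of Tchh, fell by 0.95 (limma adjusted p = 0.0162) and had fallen by 1.35 at day 1 (adjusted p = 0.0081).

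Transcription factors and receptors that direct hair follicle differentiation rose with the sheath genes while Gata3 did not. Of 14 listed regulators 13 were tested, Lef1 lying below the filter. In transgenic skin 11 rose and 0 fell from day 0 to day 7, where 18.6% of all genes tested were higher and 20.1% lower. The median change was 0.95 on the log2 scale against 0.01 for all genes. Under 7 days of 4OHT in wild-type mice 0 of the 13 rose and 2 fell, where 5.48% of all genes were higher and 5.96% lower. Msx2, a homeobox factor of the hair matrix and shaft, went from 88.1 ± 20.9 (SD, n = 2) to 765 ± 127.8 (SD, n = 3), a change of 2.73 ± 0.17 (limma adjusted p = 1.29e-08). Dlx3, a homeobox factor of the matrix and inner root sheath, rose by 2.17 ± 0.15 (limma adjusted p = 3.51e-08). Cux1, which is expressed in the inner root sheath, rose by 1.44 ± 0.11 (limma adjusted p = 7.82e-08), and Hoxc13, which acts on shaft keratin genes, by 1.90 ± 0.21 (adjusted p = 4.38e-06). The transgenic change to day 7 exceeded the wild-type change by 2.67 ± 0.23 for Msx2, 2.67 ± 0.21 for Dlx3, 1.37 ± 0.15 for Cux1 and 2.33 ± 0.30 for Hoxc13, each past the threshold. At day 1 in transgenic skin 0 of the 13 were higher and 1 was lower, near the 6.6% and 4.15% of all genes.

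Markers of other cells moved on the same arrays as the sheath genes. From day 0 to day 7 in transgenic skin 18.6% of all genes tested were higher and 20.1% lower. The summed scaled intensity of the 12 hair shaft keratins was 16360, 21240 and 7803 on the transgenic day 7 arrays and 802 to 1217 on the other 13. The 5 melanocyte markers summed to 7160 to 8322 there and to 784 to 1376 elsewhere, and all 5 rose, among them the pigment granule protein Pmel (3.14 ± 0.20, limma adjusted p = 2.03e-08) and the pigment enzymes Dct (2.87 ± 0.23, 1.64e-07) and Tyr (2.62 ± 0.22, 3.4e-07). The 7 markers of dividing cells summed to 7547 to 8418 there and to 1387 to 3790 elsewhere, and all 7 rose, among them Mki67 (2.24 ± 0.14, limma adjusted p = 2.14e-08) and Top2a (2.21 ± 0.16, 7.92e-08). Of these dividing-cell markers 6 of 7 had already risen at day 1 in each genotype, as had 6.6% of all genes in transgenic and 10.1% in wild-type skin. Of the 5 sheath genes 0 had, a count near those shares. Krt25, Krt27, Tchh and Padi3 lay under the 40th percentile on every day 1 array, so the timing of the 2 sets cannot be compared.

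Most markers of the surface epidermis fell or did not pass between day 0 and day 7 in transgenic skin. The 6 basal markers summed to 23170 to 24380 on the transgenic day 7 arrays and 28120 to 31230 at transgenic day 0, with 0 risen and 3 fallen. Their sum was already 23940 to 26840 at transgenic day 1 and 20680 to 24600 at wild-type day 1. In wild-type skin 5 of the 6 were lower at day 1 than at day 0, as were 12.3% of all genes. From day 1 to day 7 in transgenic skin 1 rose and 2 fell, with a median change of 0.0003 against 0.02 for all genes. Of 9 suprabasal markers 1 rose and 6 fell from day 0 to day 7 in transgenic skin. The 1 that rose was Casp14, a caspase of the cornifying epidermis, at 0.86 ± 0.19 (limma adjusted p = 0.00229), named after its values were seen. In the same comparison markers of endothelium (4 of 4 tested, median change -0.83), fat (4 of 4, -1.73) and muscle (4 of 5, -0.94) fell. Of 6 fibroblast markers 2 rose and 1 fell (median 0.14), and of 6 sebaceous markers 1 rose and 2 fell (median -0.21). Of all genes tested 18.6% were higher and 20.1% lower there, with a median change of 0.01. The mixed fibroblast and sebaceous counts are therefore not read as a change of those cells.

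Macrophage markers moved with the genotype comparisons of day 7. Of 7 markers 0 passed from day 0 to day 7 in transgenic skin, where 18.6% of all genes tested were higher and 20.1% lower. In wild-type skin 6 were higher at day 7 than at day 0, as were 5.48% of all genes. Their median change there was 0.98 on the log2 scale against -0.03 for all genes. The same number, 6 of 7, was lower in transgenic than in wild-type skin at day 7 (median -1.07 against 0.01 for all genes), in the comparison of the 2 genotypes' changes (median -1.11 against 0.00) and in transgenic day 7 against day 1 (median -1.06 against 0.02). In these comparisons, in the same order, 21%, 11.7% and 22.7% of all genes tested were lower. The summed scaled intensity of the 7 macrophage markers was 7910 to 12710 on the transgenic day 7 arrays, 18310 to 18370 on the wild-type day 7 arrays and 8847 to 10480 on the day 0 arrays of both genotypes. The part of these macrophage, epidermal and other cell type markers in the rise of the sheath genes was not tested.

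The genes most like each sheath gene were sought by Pearson correlation of log2 values over the 16 arrays, members left out, and the 5 nearest were kept. Krt35 was the nearest to Krt25 (r = 0.998) and to Krt71 (r = 0.997), Msx2 to Krt27 (r = 0.992) and to Padi3 (r = 0.997), and Gjb2, which encodes the gap junction protein connexin 26, to Tchh (r = 0.992). Gnmt was among the 5 nearest of all 5 sheath genes, as was Krt35, and S100a3 was among those of Krt25, Krt71, Tchh and Padi3. The other names were Fbp1 for Krt25 and Krt71, Msx2 for Krt25, Gjb2 for Krt27, Krt33a for Krt27, Krt71 and Padi3, and Ptch1 for Tchh. These correlations rest on the 3 transgenic day 7 arrays. Over the other 13 arrays the r of Krt25 with Krt35 was 0.38 and with Gnmt -0.53, and that of Padi3 with Msx2 was 0.77.

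The same held among the members. The 5 sheath genes correlated with each other at r = 0.985 to 0.997 over 16 arrays and at r = -0.387 to 0.564 over the 13 without transgenic day 7. Their correlation with Gata3 over 16 arrays lay between -0.07 and -0.02. The genes nearest to Gata3 were Rabgap1 (r = 0.921), Cdcp1 (0.92), Mprip (0.909), Cnnm3 (0.899) and Ei24 (0.899). Over the 13 other arrays their r was 0.932, 0.935, 0.911, 0.915 and 0.909. Those 13 are among the 16 arrays by which the genes were picked, so the second r is not a separate check. All of these values are over arrays that fall into groups and share those groups' differences.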

How the data were processed

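The authors' deposited values are the intensity of each of 22690 probe sets per array, 64 of them controls, on a linear scale, from biotinylated cRNA hybridised to Affymetrix arrays per the labels. The summarising software, detection calls and scan dates are not given in the sources used here. Samples were grouped by genotype and day in their titles. Each array was multiplied by a factor of 0.825 to 1.26 to reach 1 trimmed mean (2% off each end), and values were taken as log2(intensity + 32). Symbols came from the platform annotation, in which 20380 probe sets had 1 symbol, 691 several and 1555 none. Of 15058 probe sets above the filter, 13882 had 1 symbol, and the brightest per gene was kept, giving 9058 genes.

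Means of 6 groups were fitted to all 16 arrays in limma 3.58.1 under R 4.3.3, with an intensity trend in the variance and 10 residual degrees of freedom. The 9 comparisons were adjusted by Benjamini-Hochberg within each, two-sided. The code was tested on simulated data. Figures used matplotlib 3.10.9 under Python 3.11.15. Upstream sequences are RefSeq's, build GRCm38.p6.

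The members, the 16 gene lists (134 entries), the tests and the alternatives were chosen with earlier results of these data known. Genes named were the members, all tested genes of the 3 lists on sheath keratins, deiminases and transglutaminases, and S100 relatives, up to 4 with the smallest p of other lists, and the 5 most correlated per member. The number of arrays limits the precision. No 2 arrays held identical values (0 pairs). Alternatives were other scalings, added values, filters, probe set choices, variance models, samples in the fit, a replicate block, and leaving out each array.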

Additional observations from a re-analysis of the deposited data

Results flagged for a closer look

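The change from day 0 to day 7 differed between transgenic and wild-type skin in a direct test of that difference for 5 genes. On the log2(scaled intensity + 32) scale the transgenic change minus the wild-type change was 8.04 ± 0.29 (SE) for Krt25, with a limma adjusted p of 6.35e-11. It was 6.15 ± 0.47 for Krt27 (limma adjusted p = 5.82e-07), 5.95 ± 0.22 for Krt71 (6.35e-11), 5.17 ± 0.36 for Tchh (3.02e-07) and 4.33 ± 0.29 for Padi3 (2.25e-07). Of all genes tested 12.1% passed this test upwards. Krt25, Krt27, Tchh and Padi3 entered the test only through the transgenic day 7 arrays and so had to differ there once tested. The groups hold 2 or 3 arrays each, too few to look for single arrays that stand apart.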

How the results depend on the processing

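The counts of 5 members higher at day 7 in transgenic skin, against day 0, day 1 and wild-type day 7 and in the difference between genotypes, stayed at 5 under all 11 alternatives and without each of the 16 arrays. The day 0 to day 7 changes ranged over the 11 alternatives from 6.04 to 9.45 for Krt25, 5.11 to 7.21 for Krt27, 5.32 to 6.26 for Krt71, 4.45 to 5.62 for Tchh and 3.65 to 4.86 for Padi3, the ends coming from a larger and a smaller added value, which shrink or stretch changes of dim genes by construction. No value past the threshold changed sign under any alternative or without any array.

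The count of members lower, which is Gata3, went from 1 to 0 with no further scaling from day 0 to day 1 and to day 7 in both genotypes, at -0.53, -0.51, -0.56 and -0.51 in transgenic day 1, transgenic day 7, wild-type day 1 and wild-type day 7. From day 0 to day 1 in transgenic skin it also went to 0 with no filter (limma adjusted p = 0.0536), no variance trend (0.0545) and only the groups compared (0.123), at an unmoved -0.40. The cause was not tested. Without single arrays this count ranged from 0 to 1 for transgenic day 1, transgenic day 7 and wild-type day 7, and the count of members higher at wild-type day 1 from 0 to 1.

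Replicate numbers were not tied to animals or days in the labels, and same-numbered arrays of different groups deviated together at r over 0.1 in 7 of 36 pairs (range -0.252 to 0.192). Whether same-numbered arrays share a source cannot be told from these values or from the labels. With the number as a replicate block, the members lower at transgenic day 1 went to 0 (Gata3 -0.39, limma adjusted p = 0.0719), the count of 5 was kept, and Krt25 changed by 7.87 and Padi3 by 4.54 to day 7.

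Over all genes, no further scaling moved the median change by -0.124 at transgenic day 1, -0.141 at transgenic day 7, 0.151 between genotypes at day 0 and -0.103 in the difference between genotypes. Genes past the threshold then went from 974 to 186 at transgenic day 1, from 3502 to 1776 at transgenic day 7, from 4009 to 1892 for transgenic day 7 against day 1, from 2023 to 465 and from 1036 to 257 at wild-type days 1 and 7, from 118 to 16 and from 3669 to 1744 between genotypes at days 1 and 7, and from 2154 to 724 in the difference between genotypes. The share of higher genes among them went from 48.1% to 29.3% at transgenic day 7, from 45.1% to 82.2% at wild-type day 1, from 47.9% to 64.2% at wild-type day 7, from 54.2% to 75% between genotypes at day 1 and from 50.9% to 38.8% in the difference between genotypes. Fitting only the groups compared gave 453 genes at transgenic day 1 and 27 between genotypes at day 1 (66.7% higher), where the mean of probe sets gave 55 and all probe sets separately gave 42.7% higher. Without single arrays the counts ranged from 233 (without transgenic day 0 replicate 2) to 1063 at transgenic day 1, from 1178 (without wild-type day 1 replicate 1) to 2179 at wild-type day 1 and from 328 (without wild-type day 7 replicate 1) to 1179 at wild-type day 7. Between genotypes at day 1 the lowest was 17 (without wild-type day 1 replicate 1). Intensities under the 40th percentile of an array limit what can be read of Krt25, Krt27, Tchh and Padi3 outside transgenic day 7.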
